A study of Mus musculus with 12 samples.

Results

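The 10 genes described here encode extracellular matrix proteins of the lung and proteins by which lung fibroblasts and pericytes are known: Tnc, Postn, Fn1, Thbs1, Eln, Npnt, Abi3bp, Inmt, Pdgfra and Pdgfrb. They were chosen by name, each matching 1 gene of the 49585 in the expression table, and all 10 were among the 16126 genes that reached 1 CPM (counts per total reads of a library, in the authors' scaling) in at least 3 of the 12 libraries and were tested. The study asked what the regulator of G protein signalling RGS4 does in asthma, and sequenced polyadenylated RNA from whole lung of Balb/cJ mice. The 4 groups of 3 libraries were RGS4 knockout lungs exposed to Aspergillus fumigatus (KO_Af, libraries 12 to 14), wild-type lungs exposed to the same fungus (WT_Af, libraries 18 to 20), RGS4 knockout lungs given PBS (KO_PBS, libraries 9 to 11) and wild-type lungs given PBS (WT_PBS, libraries 15 to 17). The labels spell the fungus as Aspergillus funigatus. The knockout allele, the form, route and duration of exposure, and the age and sex of the mice are not stated in the labels.

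Matricellular proteins are secreted into the matrix but act mainly by changing how cells attach, migrate and respond to growth factors, and tenascin C, periostin and thrombospondin 1 are the best known of them. Fibronectin and elastin are structural: fibronectin assembles into fibrils that cells grip through integrins, and elastin gives alveoli and vessels their recoil. The PDGF receptors are tyrosine kinases that mark mesenchymal cells, the alpha receptor fibroblasts and the beta receptor pericytes. In the lung, nephronectin and the methyltransferase encoded by Inmt are known from alveolar fibroblasts, with nephronectin also made by alveolar type 1 cells, and an allergic response to fungi is classically driven by interleukin 4 and interleukin 13.

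The libraries held 20708884 to 30229446 reads, and the genes described here were well covered, from 402 reads of Abi3bp to 69511 reads of Fn1 in single libraries. Rgs4 had 13 to 32 reads in the 6 KO libraries and 472 to 1304 in the 6 WT libraries. Lung markers were present in every library, with 1061 to 3700 summed CPM over 6 alveolar type 1 cell genes. Library numbers 9 to 14 were KO and 15 to 20 WT, and within each genotype every PBS number lay below every Af number, so a difference between groups and one that follows library number cannot be told apart. Libraries WT_PBS 15 and KO_Af 12 stood apart in several of these genes. WT_PBS 15 held 10.4 times as much Eln, 3.80 times as much Tnc and 1.82 times as much Fn1 as the mean of WT_PBS 16 and 17. KO_Af 12 held 0.403 of the Tnc, 0.399 of the Fn1, 0.384 of the Thbs1 and 2.56 times the Inmt of the mean of KO_Af 13 and 14. Keratin and cornified envelope genes of squamous epithelium were high in KO_Af 12 and WT_PBS 17: the 7 genes of that list summed to 310.6 CPM in KO_Af 12 and 523.6 CPM in WT_PBS 17, against 2.10 to 34.6 CPM in the other 10 libraries. Within this list Krt6a, Dsg3 and Sprr3 were at 0 in all libraries of at least 1 group. Why these libraries differed was not tested.

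On mouse build GRCm38 the genes are spread over several chromosomes. Tnc occupies chr4:63959785-64047015 on the minus strand, Fn1 chr1:71585520-71653200 (minus), Thbs1 chr2:118111876-118127133 (plus) and Eln chr5:134702593-134747323 (minus). Postn at chr3:54361109-54391037 (plus) shares a chromosome with Npnt at chr3:132881745-132950291 (minus), and Pdgfra at chr5:75152292-75198215 (plus) shares one with Eln. Inmt lies at chr6:55170626-55175043 (minus) and Abi3bp at chr16:56477878-56690135 (plus). The annotation places genes on the opposite strand within Tnc, Fn1, Thbs1, Eln, Npnt and Pdgfra. No label says whether reads were counted by strand, so reads of these opposite-strand genes could be included in those values.

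Promoter sequence was at hand for 5 of the genes, Tnc, Postn, Npnt, Pdgfra and Inmt, in 8 windows that each reach 250 bases upstream of a RefSeq start (RefSeq, GRCm38.p6). The STAT motif (an inverted repeat of 3 bases with a gap of 4), the AP-1 motif TGANTCA, the TEAD motif GGAATG, the CArG box and the TATA motif TATAAA were searched on both strands. TATAAA was the only one found, in windows of Tnc, Postn and Inmt, while 12.4% of 32851 windows of this length hold it. The other 4 motifs occur in 5.85% (STAT motif), 6.75% (AP-1 motif), 12.6% (TEAD motif) and 1.47% (CArG box) of all windows. The Tnc, Postn and Inmt sequences are shown because these genes share the match and yet differed in their response to Af: Tnc rose, Inmt fell and Postn did not pass the test in either genotype. The capitals mark TATAAA, the sequences run 5′ to 3′ on the strand of the gene, and that of Inmt stops where the annotated gene begins.
Tnc, chr4:64047016-64047265, minus strand: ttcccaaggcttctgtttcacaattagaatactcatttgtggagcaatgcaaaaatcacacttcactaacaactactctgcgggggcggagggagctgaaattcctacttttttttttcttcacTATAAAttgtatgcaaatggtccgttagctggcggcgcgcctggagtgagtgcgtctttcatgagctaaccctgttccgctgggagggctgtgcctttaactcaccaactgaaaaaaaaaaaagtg
Postn, chr3:54360857-54361106, plus strand: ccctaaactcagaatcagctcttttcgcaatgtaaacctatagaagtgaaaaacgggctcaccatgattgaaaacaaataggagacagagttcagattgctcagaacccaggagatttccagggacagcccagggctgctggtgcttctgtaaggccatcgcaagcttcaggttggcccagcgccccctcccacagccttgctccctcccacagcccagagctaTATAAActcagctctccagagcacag
Inmt, chr6:55175044-55175240, minus strand: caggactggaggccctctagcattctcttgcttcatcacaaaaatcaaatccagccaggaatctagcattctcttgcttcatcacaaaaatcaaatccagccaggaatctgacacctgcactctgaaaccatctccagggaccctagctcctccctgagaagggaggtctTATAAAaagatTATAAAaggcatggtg
Counted back from the RefSeq start of these windows, the match lies at -26 to -21 in Postn and at -126 to -121 in Tnc. From the start of the other Tnc window the same match lies at -205 to -200. Beyond the sequence shown, that window also holds the letters tatataa, which a search for exact TATAAA does not count. Inmt has a pair of TATAAA matches, at -80 to -75 and -69 to -64. Each match describes these letters and was not tested as a site.

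The methyltransferase gene Inmt stood far above the others per length of transcript in both PBS groups, and Tnc was the lowest in KO_PBS. Levels per kilobase (kb) of exon averaged 1388 ± 55.7 CPM per kb for Inmt, 212 ± 12.9 for Npnt, 59.4 ± 1.41 for Fn1 and 4.07 ± 0.452 for Tnc in KO_PBS (SD, n = 3). In the order of KO_PBS means the ranges of Postn and Pdgfra overlapped, at 45.9 ± 1.85 and 45.4 ± 2.69 CPM per kb, and no other neighbours did: Pdgfrb, Thbs1, Eln and Abi3bp followed at 41.7, 32.6, 27.3 and 14.5 CPM per kb. In WT_PBS the ranges of Abi3bp and Tnc overlapped, with Tnc at 16.9 and Abi3bp at 13.4 CPM per kb in WT_PBS 15. Under Af the order changed. In KO_Af, Inmt at 285 ± 170, Fn1 at 174 ± 77.4 and Thbs1 at 162 ± 77.4 CPM per kb overlapped in turn, as did the 6 genes from Eln at 57.3 to Pdgfrb at 19.5 CPM per kb. Abi3bp was then the lowest of the 10, at 2.48 ± 0.353 CPM per kb in KO_Af and 4.11 ± 0.286 in WT_Af. The median coefficient of variation over the 10 genes was 29.9% in KO_Af and 20.0% in WT_Af, against 5.94% in KO_PBS and 15.0% in WT_PBS. In KO lungs all 10 genes varied more under Af. In WT lungs Thbs1, Inmt, Pdgfra and Abi3bp varied more under Af. There Tnc, Postn, Fn1, Eln, Npnt and Pdgfrb varied more in PBS, with Eln at 131% in WT_PBS against 39.3% in WT_Af.

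**Figure D1:**
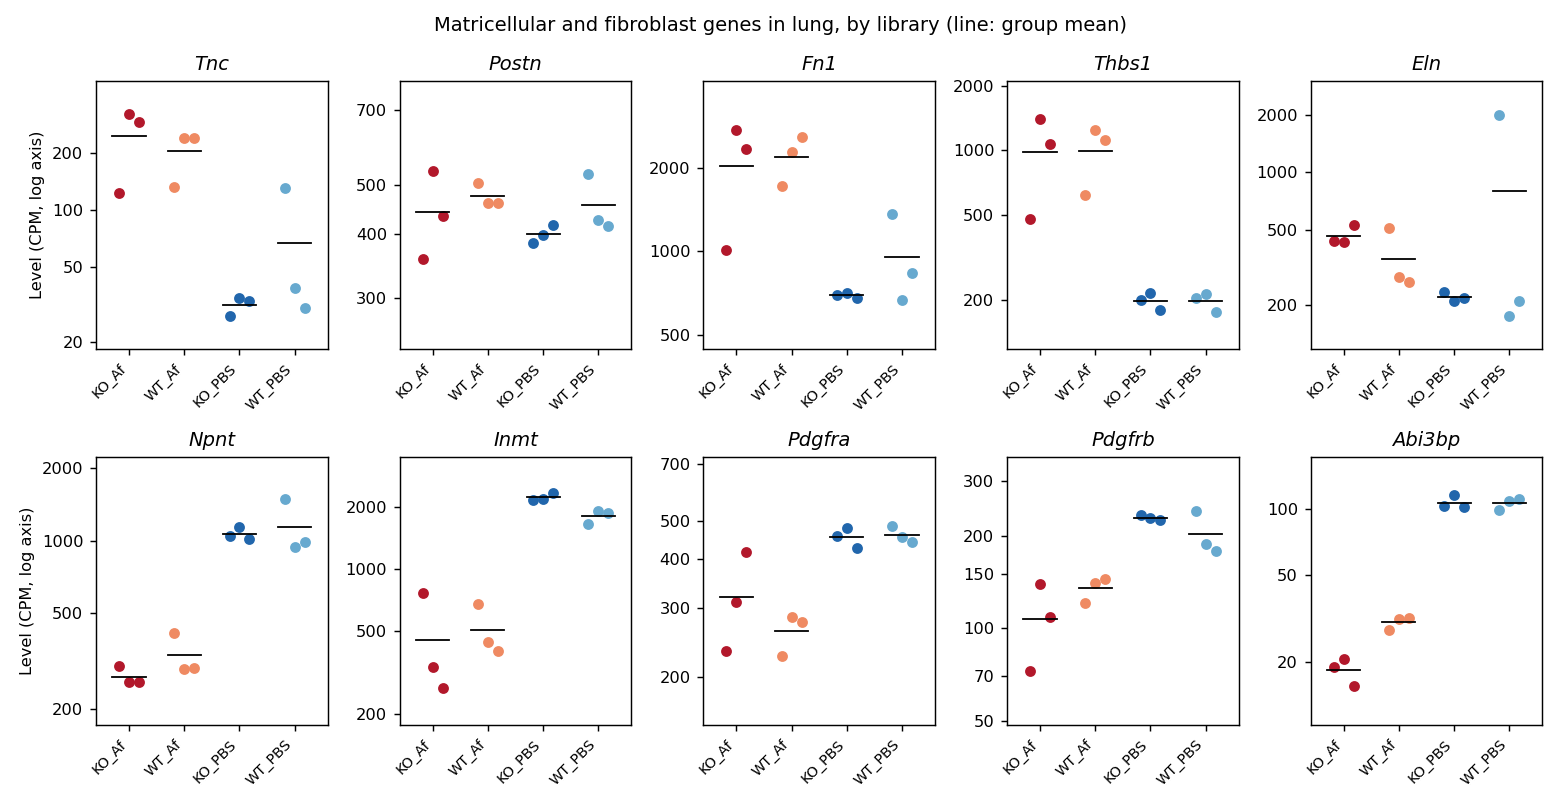
Level of each gene in CPM (log axis) in every library, by group; each point is 1 library and the line is the group mean of 3. Tnc, Fn1 and Thbs1 are higher and Npnt, Inmt, Pdgfra, Pdgfrb and Abi3bp lower in Af than in PBS libraries of the same genotype, while the Eln point at 2014 CPM is WT_PBS 15.

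Under Af, Tnc, Fn1 and Thbs1 rose and Npnt, Inmt, Pdgfra, Pdgfrb and Abi3bp fell, in both genotypes (limma across all 16126 genes, Benjamini-Hochberg adjusted p under 0.05, log2 of CPM + 0.5). In KO lungs 8 of the 10 genes passed, against 57.9% of all genes tested, 3 of them higher (28.7% of all genes) and 5 lower (29.2%). In WT lungs 8 passed against 51.8% of all genes, 3 higher (26.2%) and 5 lower (25.6%). Libraries of both exposures did not overlap for 9 of the 10 in KO lungs, against 62.9% of all genes, and for 8 of the 10 in WT lungs, against 65.4%. So broad a response means that the count by itself sets these genes little apart, and the counts of other lists under Af are to be read beside the same shares. In whole lung, fewer cells of a type and less RNA per cell cannot be told apart, and a p-value here speaks for the spread among libraries only, since the labels do not say whether each is a separate mouse.

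Tenascin C, a protein sparse in resting adult tissue and made in wounds and remodelling airways, rose in both genotypes. Tnc had 123, 320 and 292 CPM in KO_Af, against 27.6, 34.2 and 33.1 CPM in KO_PBS. The groups did not overlap, and Tnc was 7.08-fold higher in KO_Af (log2 2.82 ± 0.49 SE, limma adjusted p = 0.000509), and log2 3.26 higher without KO_Af 12. In WT lungs it had 133, 241 and 241 CPM in WT_Af, against 131, 38.8 and 30.4 CPM in WT_PBS. WT_PBS 15 reached nearly the lowest WT_Af library, while the other WT_PBS libraries lay far below. Tnc was 3.65-fold higher in WT_Af (log2 1.87 ± 0.49, limma adjusted p = 0.00816), and log2 2.51 higher without WT_PBS 15. The larger change in KO was not a called difference (interaction log2 0.96 ± 0.70, limma adjusted p = 0.705).

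Thrombospondin 1, a large glycoprotein released by platelets and made by many cells, which can activate latent TGF-beta, rose by a like factor in both genotypes. Thbs1 had 474, 1403 and 1065 CPM in KO_Af, against 198, 215 and 180 CPM in KO_PBS. It had 617, 1239 and 1110 CPM in WT_Af, against 203, 211 and 176 CPM in WT_PBS. Every Af library lay above every PBS library of its genotype, and libraries KO_Af 12 and WT_Af 18 were the lowest of their groups. The rise was 4.51-fold in KO lungs (log2 2.17 ± 0.34, limma adjusted p = 0.000247) and 4.81-fold in WT lungs (log2 2.27 ± 0.34, limma adjusted p = 0.000242). Without KO_Af 12 the rise in KO lungs was log2 2.63. Platelet genes were mixed: of 8 platelet and megakaryocyte genes 5 were tested, and Pf4 was the only one that rose, by log2 1.78 in KO and 1.45 in WT lungs, while Gp1ba fell in KO lungs (log2 -0.82). The 8 summed to 40.8 to 53.9 CPM in KO_Af, against 22.4 to 29.8 CPM in KO_PBS. In WT lungs they summed to 32.4 to 44.1 CPM in WT_Af, against 15.4 to 24.1 CPM in WT_PBS. Pf4 alone averaged 31.4 CPM in KO_Af and 23.0 CPM in WT_Af, against 8.75 CPM in KO_PBS and 8.18 CPM in WT_PBS. The part of platelet genes in the level of Thbs1 was not tested.

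Fibronectin, the fibril-forming glycoprotein of provisional matrix, rose in both genotypes. Fn1 had 1014, 2740 and 2345 CPM in KO_Af, against 695, 710 and 677 CPM in KO_PBS. In WT lungs it had 1721, 2277 and 2573 CPM in WT_Af, against 1365, 666 and 835 CPM in WT_PBS. Af and PBS libraries did not overlap in either genotype, although WT_PBS 15 came near the lowest WT_Af library. Fn1 was 2.69-fold higher in KO_Af (log2 1.43 ± 0.34, limma adjusted p = 0.00407) and 2.37-fold higher in WT_Af (log2 1.24 ± 0.34, limma adjusted p = 0.0104). Without KO_Af 12 Fn1 was log2 1.87 higher in KO_Af. Macrophages, which also make fibronectin, had mixed markers: 8 of 10 macrophage genes rose in each genotype, while Lyz2 and Marco fell in each. Beside these counts stand 28.7% of all genes higher and 29.2% lower in KO lungs, and 26.2% and 25.6% in WT lungs. C1qb averaged 227 ± 29.5 CPM in KO_Af and 193 ± 26.7 CPM in WT_Af, against 38.7 ± 4.99 CPM in KO_PBS and 62.4 ± 15.1 CPM in WT_PBS (SD, n = 3 each). The 10 macrophage genes summed to 3464 to 4917 CPM in KO_Af and 3382 to 4199 CPM in WT_Af, against 5165 to 5277 CPM in KO_PBS and 4330 to 7298 CPM in WT_PBS. Lyz2, which fell, held 3282 of the 4917 CPM in KO_Af 12, so the sum need not follow the 8 genes that rose. The part of macrophages in the rise of Fn1 was not tested.

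Periostin, a matricellular protein that airway epithelium and fibroblasts make in response to interleukin 13, showed no called change. Postn had 358, 530 and 435 CPM in KO_Af, against 384, 399 and 416 CPM in KO_PBS. It had 504, 460 and 461 CPM in WT_Af, against 525, 426 and 415 CPM in WT_PBS. Both pairs of groups overlapped. The difference was log2 0.12 ± 0.14 in KO lungs, with a 95% interval from -0.17 to 0.42, and log2 0.07 ± 0.14 in WT lungs, from -0.23 to 0.36 (limma adjusted p = 0.454 and 0.705). Of 6 genes of the interleukin 4 and 13 axis 5 rose in KO lungs, against 28.7% of all genes. In WT lungs 4 rose, against 26.2% of all genes, and none was lower in either genotype. Any link of this axis to the level of Postn was not tested. Il13 averaged 5.54 ± 4.04 CPM in KO_Af and 6.22 ± 1.40 CPM in WT_Af, and was near 0 in both PBS groups.

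Elastin, the core of elastic fibres, turned on 1 library. Eln had 434, 432 and 527 CPM in KO_Af, against 236, 210 and 219 CPM in KO_PBS. All KO_Af libraries lay above all KO_PBS libraries, 2.09-fold on average (log2 1.06 ± 0.69), but limma's adjusted p was 0.207 in the fit of all 12 libraries. The KO difference was called in a fit of these 6 libraries alone (limma adjusted p = 0.000384) and with library weights (limma adjusted p = 0.0346). In WT lungs Eln had 512, 281 and 263 CPM in WT_Af, against 2014, 176 and 210 CPM in WT_PBS. The groups overlapped through WT_PBS 15 alone, and the difference was log2 -0.33 ± 0.69 (limma adjusted p = 0.714). Without WT_PBS 15 the direction turned: Eln was log2 0.80 higher in WT_Af (limma adjusted p = 0.0177), and the KO difference of log2 1.06 was then called as well (limma adjusted p = 0.00157).

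Genes that assemble elastic fibres went both ways. Of 20 such genes 8 rose and 7 fell in KO lungs (median log2 0.23) and 7 rose and 6 fell in WT lungs (median log2 -0.18). Of all genes 28.7% were higher and 29.2% lower in KO lungs, 26.2% were higher and 25.6% lower in WT lungs, and the median was log2 -0.02 in each. Lox, which crosslinks elastin and collagen, averaged 241 ± 55.7 CPM in KO_Af and 175 ± 16.0 CPM in WT_Af, against 55.7 ± 8.27 CPM in KO_PBS and 118 ± 52.0 CPM in WT_PBS. It rose by log2 2.09 in KO lungs and, from a WT_PBS group in which library 15 was 2.02 times the mean of the others, by log2 0.65 in WT lungs. Ltbp4, a latent TGF-beta binding protein needed for elastic fibre formation, fell by 2.23 on the log2 scale in KO lungs and by 1.94 in WT lungs. In WT_PBS 15 the fibre genes Mfap5, Ltbp2 and Fbn1 were also 2.97, 2.58 and 2.24 times the mean of WT_PBS 16 and 17, and the list summed to 5103 CPM there, against 3139 and 3567 CPM in those libraries.

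Abi3bp encodes a secreted connective tissue protein named for binding Abi3. Abi3bp had 19.0, 20.6 and 15.5 CPM in KO_Af, against 104, 116 and 103 CPM in KO_PBS. In WT lungs it had 28.0, 31.6 and 31.8 CPM in WT_Af, against 99.5, 110 and 111 CPM in WT_PBS. The Af and PBS libraries were far apart in both genotypes and each group was tight. The fall was 5.76-fold in KO lungs (log2 -2.52 ± 0.11, limma adjusted p = 4.64e-08) and 3.47-fold in WT lungs (log2 -1.79 ± 0.11, limma adjusted p = 5.83e-07).

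Nephronectin is a basement membrane protein that binds integrin alpha 8 beta 1. Npnt had 301, 260 and 259 CPM in KO_Af, against 1043, 1139 and 1015 CPM in KO_PBS. It had 414, 295 and 298 CPM in WT_Af, against 1485, 944 and 987 CPM in WT_PBS. No Af library came near a PBS library, and WT_PBS 15 was again the highest. Npnt was 3.90-fold lower in KO_Af (log2 -1.96 ± 0.18, limma adjusted p = 4.38e-06) and 3.36-fold lower in WT_Af (log2 -1.75 ± 0.18, limma adjusted p = 1.45e-05). The gene of its receptor chain, Itga8, fell with it: it averaged 97.2 ± 14.9 CPM in KO_Af and 142 ± 10.3 CPM in WT_Af, against 506 ± 21.3 CPM in KO_PBS and 496 ± 52.7 CPM in WT_PBS. Itga8 was lower by log2 -2.39 in KO and -1.80 in WT lungs. Alveolar type 1 cell genes, which mark the other known source of Npnt, fell for 5 of 6 genes in each genotype. Of all genes 29.2% were lower in KO and 25.6% in WT lungs. The 6 genes summed to 1174 to 2358 CPM in KO_Af and 1061 to 1814 CPM in WT_Af. In PBS lungs they summed to 2160 to 3700 CPM in KO_PBS and 2942 to 3419 CPM in WT_PBS. Their part in the level of Npnt was not tested.

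Inmt encodes an enzyme that methylates indole amines. It had 768, 334 and 265 CPM in KO_Af, against 2163, 2177 and 2324 CPM in KO_PBS. In WT lungs it had 680, 442 and 404 CPM in WT_Af, against 1657, 1897 and 1869 CPM in WT_PBS. Libraries KO_Af 12 and WT_Af 18 were the highest of their groups, the reverse of Thbs1, and still lay below all PBS libraries. Inmt was 5.43-fold lower in KO_Af (log2 -2.44 ± 0.32, limma adjusted p = 6.25e-05) and 3.64-fold lower in WT_Af (log2 -1.86 ± 0.32, limma adjusted p = 0.000550). Without KO_Af 12 the difference in KO lungs was log2 -2.90.

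The receptors for platelet-derived growth factor fell by smaller factors than Npnt, Inmt and Abi3bp. Pdgfra had 233, 310 and 416 CPM in KO_Af, against 459, 480 and 426 CPM in KO_PBS. It had 226, 284 and 276 CPM in WT_Af, against 487, 455 and 443 CPM in WT_PBS. The highest KO_Af library came close to the lowest of KO_PBS, while the WT groups were well apart. Pdgfra was 1.46-fold lower in KO_Af (log2 -0.55 ± 0.17, limma adjusted p = 0.0168), with log2 -0.34 without KO_Af 12, and 1.77-fold lower in WT_Af (log2 -0.82 ± 0.17, limma adjusted p = 0.00199). The KO call was lost in 4 of 25 alternative fits, with adjusted p up to 0.0632 (library weights), among them those without KO_PBS 10 (limma adjusted p = 0.0553) and without WT_PBS 17 and KO_Af 12 (0.0551).

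The beta receptor, which pericytes need for recruitment to vessels, followed. Pdgfrb had 72.9, 139 and 109 CPM in KO_Af, against 233, 228 and 225 CPM in KO_PBS. It had 121, 140 and 145 CPM in WT_Af, against 241, 188 and 178 CPM in WT_PBS. Af and PBS libraries did not overlap in either genotype, and KO_PBS was the tightest of the 4 groups. Pdgfrb was 2.21-fold lower in KO_Af (log2 -1.14 ± 0.19, limma adjusted p = 0.000389) and 1.48-fold lower in WT_Af (log2 -0.57 ± 0.19, limma adjusted p = 0.0276). The WT call was lost in 4 of 25 alternative fits, with limma adjusted p = 0.105 and log2 -0.43 without WT_PBS 15, 0.0907 without WT_Af 18, 0.0525 without WT_Af 19 and 0.0514 with no filter on low genes. Of the 4 PDGF ligand genes 1 rose and 3 fell in KO lungs, and 1 rose and 2 fell in WT lungs. Among all genes 28.7% were higher and 29.2% lower in KO lungs, and 26.2% and 25.6% in WT lungs. Pdgfc rose, by log2 1.88 in KO and 1.68 in WT lungs, Pdgfa and Pdgfd fell in both, and the receptor-like gene Pdgfrl was called in neither. Pdgfa, the main ligand of the alpha receptor, averaged 29.6 ± 7.01 CPM in KO_Af and 33.5 ± 4.39 CPM in WT_Af, against 58.9 ± 7.31 CPM in KO_PBS and 52.6 ± 3.58 CPM in WT_PBS.

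**Figure D2:**
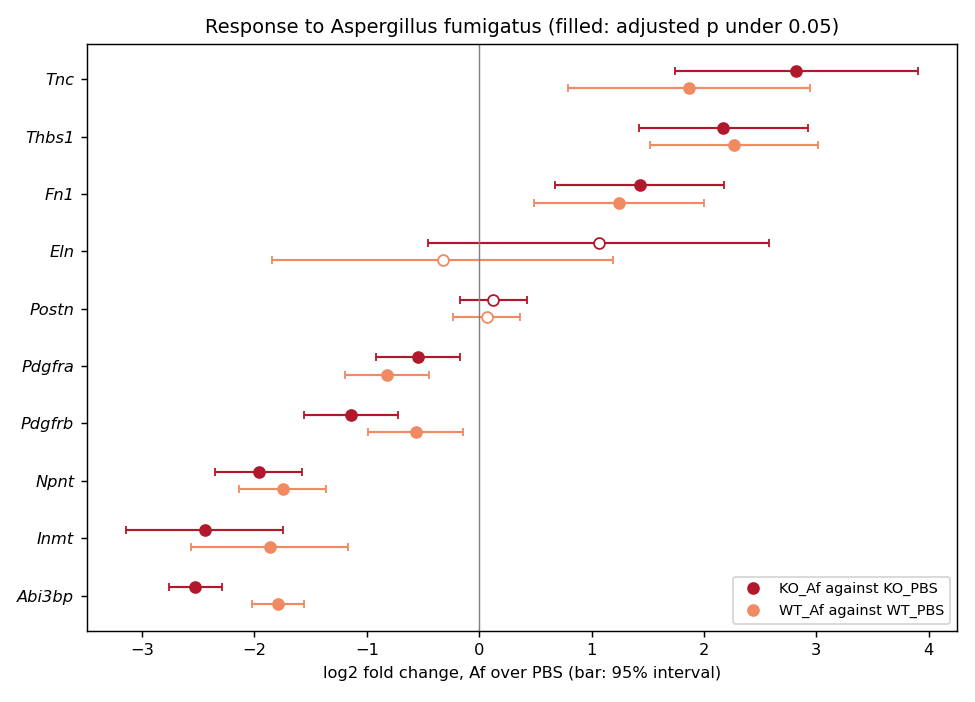
Log2 fold change of each gene, Af over PBS, in KO (upper point) and WT lungs (lower point), with 95% intervals; filled points have a limma adjusted p under 0.05. The same 8 genes are filled in both genotypes, and the widest intervals are those of Eln.

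Most alveolar fibroblast and pericyte markers fell under Af, and adventitial fibroblast markers were mixed. Of all genes tested 28.7% were higher and 29.2% lower in KO lungs, and 26.2% higher and 25.6% lower in WT lungs. Of 13 alveolar fibroblast markers 12 fell in KO lungs and 11 in WT lungs, with none higher, and the median was log2 -1.12 in KO and -1.18 in WT. They summed to 1553 to 2248 CPM in KO_Af and 1772 to 2700 CPM in WT_Af, against 4033 to 4379 CPM in KO_PBS and 3870 to 5177 CPM in WT_PBS. Col13a1, a collagen gene of these cells, averaged 51.9 ± 5.67 CPM in KO_Af and 51.3 ± 3.04 CPM in WT_Af, against 146 ± 5.51 CPM in KO_PBS and 130 ± 12.2 CPM in WT_PBS. Of 12 pericyte markers 9 fell in KO lungs (median log2 -1.19) and 10 in WT lungs (median log2 -0.86), again with none higher. The pericyte genes summed to 344 to 472 CPM in KO_Af and 454 to 500 CPM in WT_Af, against 952 to 972 CPM in KO_PBS and 868 to 951 CPM in WT_PBS. Cspg4, a pericyte proteoglycan, was not called in either genotype (log2 -0.22 in KO and -0.13 in WT). Adventitial fibroblast markers were mixed, with 3 higher and 4 lower of 14 in KO lungs and 2 higher and 6 lower in WT lungs: Scara5 fell (log2 -1.51 in KO and -2.05 in WT lungs), while Ly6a rose (log2 0.79 and 0.58). They summed to 1910 to 2357 CPM in KO_Af and 1793 to 1895 CPM in WT_Af, against 1694 to 1874 CPM in KO_PBS and 1934 to 2003 CPM in WT_PBS. No marker of these 3 lists was at 0 in all libraries of a group. The part of cell numbers in the fall of Npnt, Inmt, Pdgfra, Pdgfrb and Abi3bp was not tested.

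The counts of matricellular and matrix genes that follow stand beside 28.7% of all genes higher and 29.2% lower in KO lungs, and 26.2% higher and 25.6% lower in WT lungs. Of 23 other matricellular genes 22 were tested, and 4 rose and 10 fell in KO lungs (median log2 -0.46) while 3 rose and 11 fell in WT lungs (median log2 -0.55). Spp1, which encodes osteopontin, an adhesive protein abundant in activated macrophages, averaged 831 ± 202 CPM in KO_Af and 688 ± 44.6 CPM in WT_Af, against 61.0 ± 4.94 CPM in KO_PBS and 64.3 ± 19.3 CPM in WT_PBS. It rose by log2 3.73 in KO and 3.45 in WT lungs. Tgfbi and Spon2 also rose in both. Several relatives of the genes that rose fell: Tnxb, a tenascin like Tnc, fell in KO lungs (log2 -1.82) and in WT lungs (log2 -1.41). Thbs2 and Thbs3, thrombospondins like Thbs1, fell in KO lungs (log2 -0.60 and -0.96) and in WT lungs (log2 -1.26 and -0.99). Of 10 proteoglycan genes 1 rose in each genotype, the versican gene Vcan (log2 2.41 in KO and 2.03 in WT), and 5 fell in KO and 9 in WT lungs, among them Ogn (log2 -1.21 and -1.11) and Prelp (log2 -1.22 and -1.13). Of 13 matrix receptor genes 3 rose and 3 fell in KO lungs and 2 rose and 3 fell in WT lungs, a smaller share than the 57.9% and 51.8% of all genes called in these comparisons, so nothing is read from it. Of 15 TGF-beta signalling genes 2 rose and 7 fell in KO lungs and 2 rose and 5 fell in WT lungs. The share called was near that of all genes in KO lungs and below it in WT lungs, so nothing is read from it. The co-receptor gene Tgfbr3 fell in both (log2 -1.20 in KO and -1.17 in WT). Acvrl1 and Eng fell in KO lungs (log2 -1.035 and -1.18), and Tgfb1 rose by log2 0.53 in WT lungs. The means of the other genotype went the same way. Acvrl1 averaged 546 ± 57.05 CPM in WT_Af against 792 ± 144 CPM in WT_PBS, and Eng 508 ± 75.65 against 704 ± 106 CPM. Tgfb1 averaged 126 ± 20.96 CPM in KO_Af against 109 ± 4.80 CPM in KO_PBS.

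**Figure D3:**
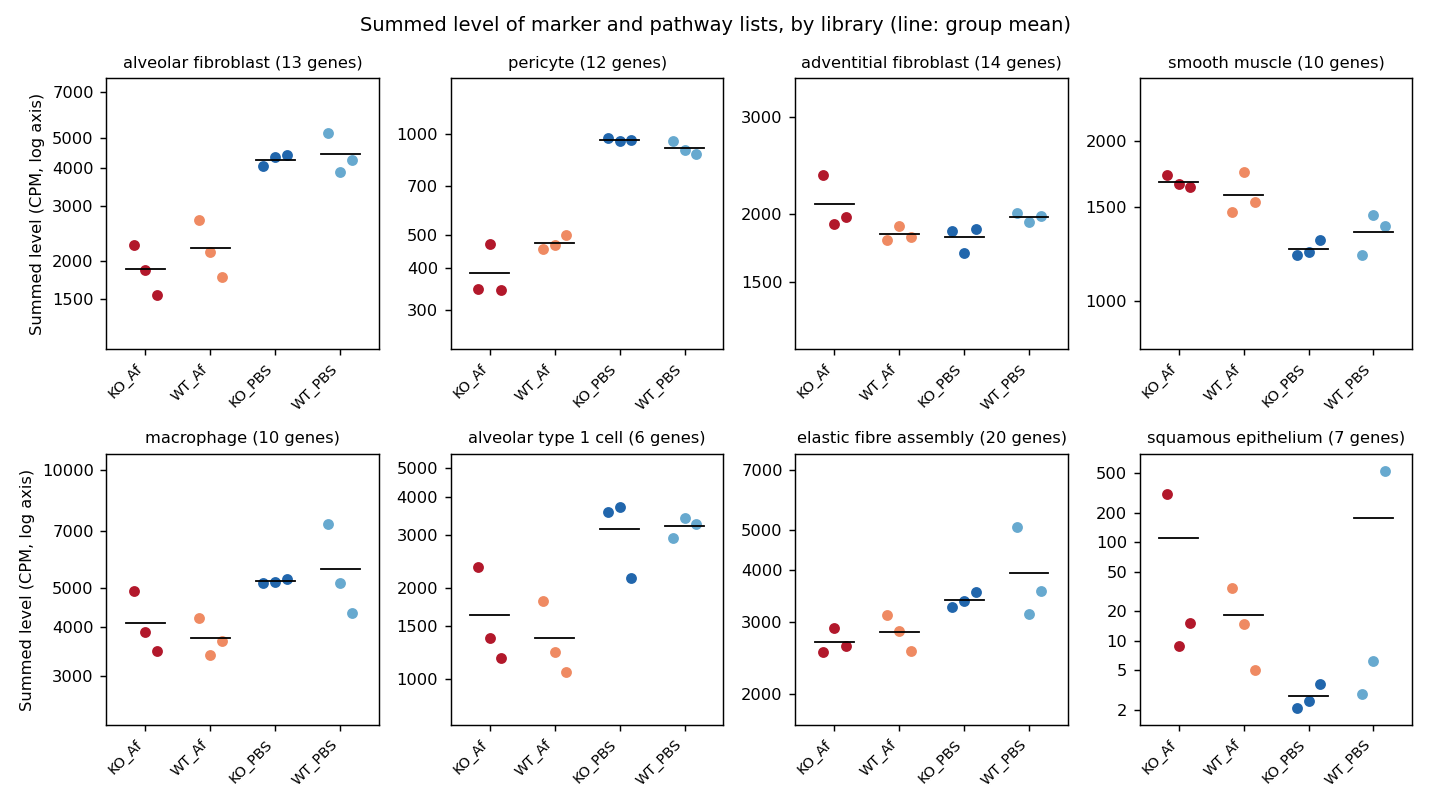
Summed CPM (log axis) of 8 marker and pathway lists in every library, by group; each point is 1 library and the line is the group mean of 3. Alveolar fibroblast and pericyte sums are lower in all Af than in all PBS libraries, and the squamous epithelium sum is high in KO_Af 12 and WT_PBS 17.

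Between genotypes Abi3bp was the only one of the 10 genes called. In PBS lungs none of the 10 passed between KO_PBS and WT_PBS by limma, by edgeR or by DESeq2, which gave no adjusted p for Eln. None had an unadjusted limma p under 0.05 either, and 3.55% of all genes passed by limma. Only Inmt had groups that did not overlap, with 2163, 2177 and 2324 CPM in KO_PBS against 1657, 1897 and 1869 CPM in WT_PBS (17.4% of all genes were likewise higher without overlap), and its difference was log2 0.30 ± 0.32 (limma adjusted p = 0.704). The 95% intervals are wide for some genes: log2 -2.44 to 0.59 for Eln, -1.84 to 0.32 for Tnc and -0.74 to 0.76 for Thbs1. They are narrower for others, at -0.39 to 0.35 for Pdgfra and -0.22 to 0.24 for Abi3bp.

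Under Af 1 of the 10 passed between KO_Af and WT_Af, Abi3bp, where 0.0868% of all genes passed and 0.0496% were called lower. Its 19.0, 20.6 and 15.5 CPM in KO_Af lay below its 28.0, 31.6 and 31.8 CPM in WT_Af, without overlap, as for 6.10% of all genes. Abi3bp averaged 18.4 ± 2.62 CPM in KO_Af and 30.5 ± 2.12 CPM in WT_Af (SD, n = 3 each), 1.65-fold lower in KO_Af (log2 -0.72 ± 0.11, limma adjusted p = 0.0333). The difference kept its direction in all 25 alternative fits, at log2 -0.93 to -0.61, but its call was lost in 13 of them, with adjusted p from 8.04e-07 with DESeq2 to 0.593 in a fit of these 6 libraries alone. Leaving out a single library raised the limma adjusted p to 0.231 (WT_Af 19), 0.143 (WT_Af 20), 0.106 (WT_Af 18), 0.0808 (KO_Af 14) and 0.0512 (KO_Af 12), and to between 0.0623 and 0.0865 without KO_PBS 9, 10 or 11 or WT_PBS 16 or 17. By edgeR the adjusted p was 0.0359. Itga8 was picked as the gene most like Abi3bp over these same 12 libraries, so its value is not a separate observation. It was lower by log2 -0.55 ± 0.12 in KO_Af and did not pass (limma adjusted p = 0.165). Averaged over both exposures Abi3bp was log2 -0.36 ± 0.08 lower in KO (limma adjusted p = 0.0351, where 2.16% of all genes passed), a call lost in 9 of 24 alternative fits, among them those without WT_Af 19 or 20, KO_PBS 9, 10 or 11 and WT_PBS 16 or 17, with adjusted p up to 0.105.

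Whether Af lowered Abi3bp more in KO than in WT lungs was tested by the interaction. It was log2 -0.73 ± 0.15 (limma adjusted p = 0.0957), and adjusted p was 0.0991 by edgeR and 0.00111 by DESeq2. It passed by limma with library weights (adjusted p = 0.00173) and without KO_Af 13 (adjusted p = 0.0299). By limma none of the 10 passed, where 0.00620% of all genes did, with 1 of the 10 at an unadjusted p under 0.05, none passing by edgeR and 1 by DESeq2. Pdgfrb came next, with log2 -0.57 ± 0.27 (limma adjusted p = 0.482). Under Af the remaining genes had limma adjusted p of 0.471 or more between genotypes. Their intervals included log2 -1.05 to 1.98 for Eln, -0.89 to 1.27 for Tnc, -0.96 to 0.54 for Fn1 and -0.84 to 0.66 for Thbs1. Between KO_PBS and WT_PBS 4 of 178 tested genes of the pathway and marker lists passed by limma, 2.25% against 3.55% of all genes, so nothing is read from their number. Itga4 (log2 0.76), Wnt2 (log2 0.76) and Tek (log2 0.49) were higher in KO_PBS, and Abcc9 was lower (log2 -0.52).

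**Figure D4:**
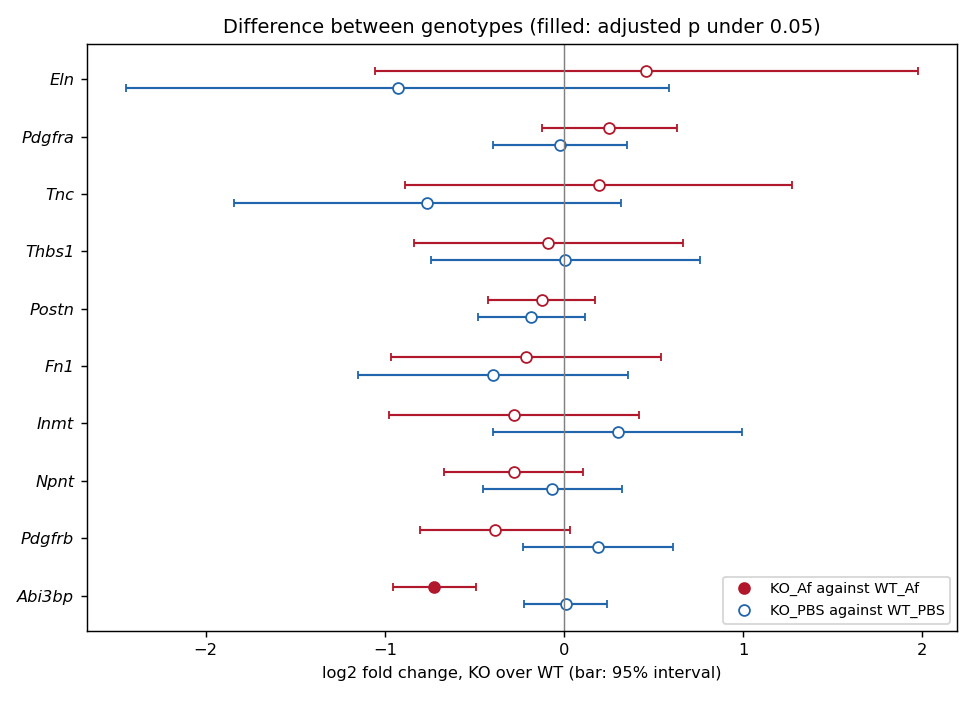
Log2 fold change of each gene, KO over WT, under Af (upper point) and PBS (lower point), with 95% intervals; filled points have a limma adjusted p under 0.05. Abi3bp under Af, at log2 -0.72, is the only filled point.

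Likeness of pattern was measured as the root mean square difference between genes of their log2 levels, each scaled to unit SD over the 12 libraries, so that 0 is an identical pattern. All 12 libraries share the contrast of Af with PBS, and the values are a description. Abi3bp was most like Itga8 (0.122), Vtn (0.127) and Per3 (0.131). Inmt was most like Mettl7a1 (0.0991), Npnt most like Mamdc2 (0.109) and Thbs1 most like Nfkb2 (0.09998), with Myo5a (0.127) and the macrophage receptor gene Mrc1 (0.138) following for Thbs1. Tnc was most like Cpne2 (0.188), with Fbn1, the gene of the elastic fibre protein fibrillin 1, also close (0.202), and Fn1 was most like Pgs1 (0.182). Pdgfrb was most like Grk3 (0.156) and Pdgfra most like Wdr60 (0.223). The closest matches of Postn, with Gpr107 (0.355), and of Eln, with Trp53i11 (0.371), were looser. Among the 10 genes themselves the closest were Tnc and Fn1 (0.271) and Npnt and Abi3bp (0.273), while Eln and Postn had no close partner, at 0.897 for Eln with Postn and 0.792 for Postn with Fn1.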

How the data were processed

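RNA from mouse lung was extracted with a Qiagen kit and made into Illumina TruSeq mRNA libraries, per the labels' protocols. The authors used cutadapt 1.18, STAR 2.7.6a and RSEM 1.3.0 with builds GRCm38 and GRCh38, per the submitters' processing notes. The deposited signal is CPM scaled by TMM, as the table's name says. All values were whole multiples of 1 read (100% at a tolerance of 0.01), which gave back the reads. Of 49585 genes, 16126 with 1 CPM or more in at least 3 of 12 libraries were tested on log2(CPM + 0.5), which understates changes of low genes, with limma 3.58.1 (R 4.3.3, mean-variance trend, 1 fit of 4 groups, 8 residual degrees of freedom, Benjamini-Hochberg adjusted p under 0.05). The fit was tested on simulated data. Alternatives included edgeR 4.0.16 and DESeq2 1.42.0 on the recovered reads, other pseudocounts, filters and scalings, and fits without single libraries.

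No library was a copy of another: between replicates, chi-square divided by its degrees of freedom was 11.2 or more. The genes and lists were chosen with earlier results of these data known. Named were the 10 genes, Rgs4, up to 3 called genes of each list and comparison with the smallest p, and for each of the 10 the 3 genes most like it, without predicted or clone-named genes. List genes named beyond these, such as the tenascin and thrombospondin relatives, Cspg4, Pdgfrl, Scara5, Ly6a, Tgfbi and Spon2, were chosen after their values were seen. Coordinates and exon lengths are from GENCODE M21, and the identifier of Abi3bp matched without its version.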

Additional observations from a re-analysis of the deposited data

How the results depend on the processing

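Among results of the 10 genes under alternative fits, 1430 stayed on the same side of the threshold, 30 lost a call and 13 gained one. In 1 case a call came with a changed direction: Eln in WT lungs, at log2 0.80 without WT_PBS 15. Its range was log2 -0.95 to 0.80 over the fits without single libraries. The 1430 include differences, called in neither fit, that changed direction. Fn1 between KO_Af and WT_Af, for example, was log2 -0.21 in the main fit and up to 0.23 in another. The called counts under Af against PBS stayed within 1.5 times their main value, at 7069 to 9764 genes and 7 to 8 of the 10 in WT lungs and 7921 to 9460 genes and 7 to 9 of the 10 in KO lungs when 1 library was left out.

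Genotype counts moved more, and why was not tested. Between KO_PBS and WT_PBS 573 genes passed, with 373 under no filter, 2646 with library weights, 1124 with these groups alone, 1216 with DESeq2 and 130 to 1235 without single libraries, and 0 of the 10 in each of the fits without a library. Between KO_Af and WT_Af 14 passed, with 9 at a filter of 5 CPM, 2204 with library weights, 3 with these groups alone, 189 with DESeq2 and 3 to 111 without single libraries. Of the 10 genes 1 passed there, with 0 under no variance trend, 0 with these groups alone, 0 without WT_PBS 17 and KO_Af 12, 4 with library weights and 0 to 1 without single libraries. For genotype averaged over exposures 349 passed, with 188 under no filter, 3224 with library weights, 1162 with DESeq2 and 103 to 813 without single libraries; of the 10 genes 1 passed, with 0 under no filter, 0 without WT_PBS 17 and KO_Af 12, 2 with library weights and 0 to 1 without single libraries. For the interaction 1 gene passed, with 2 at a pseudocount of 1, 0 under no filter, 0 at a filter of 5 CPM, 5 with no TMM scaling, 5 with upper-quartile scaling, 0 under no variance trend, 5 with robust variance, 1602 with library weights, 366 with DESeq2 and 0 to 187 without single libraries; of the 10 genes 0 passed, with 4 under library weights, 1 with DESeq2 and 0 to 1 without single libraries. The library weights ran from 0.120 for KO_Af 12 to 3.29 for KO_Af 14. DESeq2 gave no adjusted p for Eln in any comparison. No paired analysis was possible because each library number occurs once and no group shares a number with another. The number of libraries, 3 a group, limits the precision, and the 10 genes had 402 reads or more in each library.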

Other observations

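Marker counts of other structural cells stand beside 57.9% of all genes called between Af and PBS in KO lungs and 51.8% in WT lungs. By direction, 28.7% of all genes were higher and 29.2% lower in KO lungs, and 26.2% and 25.6% in WT lungs. Of the lists below, smooth muscle in WT lungs, and cardiac muscle and squamous epithelium in both genotypes, had a smaller share called than all genes, and nothing is read from their counts. Of 10 smooth muscle genes 4 rose in each genotype, Acta2, Tagln, Actg2 and Des. Actg2 averaged 93.8 ± 7.86 CPM in KO_Af and 81.0 ± 2.13 CPM in WT_Af, against 41.0 ± 3.59 CPM in KO_PBS and 41.8 ± 4.85 CPM in WT_PBS (SD, n = 3 each), and rose by log2 1.19 in KO and 0.95 in WT lungs. In KO lungs 4 of the list fell, Myh11, Lmod1, Smtn and Synpo2, and in WT lungs 1, Smtn. Of 7 endothelial genes 5 fell in KO and 4 in WT lungs, with none higher: the receptor gene Tek averaged 185 ± 31.3 CPM in KO_Af and 214 ± 10.0 CPM in WT_Af, against 604 ± 11.0 CPM in KO_PBS and 432 ± 32.6 CPM in WT_PBS.

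Of 6 alveolar type 1 cell genes 5 fell in each genotype, and Pdpn rose in KO lungs (log2 0.57). Rtkn2 fell by 1.93 on the log2 scale in KO and 2.36 in WT lungs. Mesothelial genes were mixed, with 2 higher and 2 lower of 5 in KO lungs and 1 higher and 2 lower in WT lungs; Upk3b fell by 1.41 and 1.33 on the log2 scale. Of 6 cardiac muscle genes 3 fell in KO and 2 in WT lungs, and the list summed to 113.4 to 416.4 CPM in KO_Af and 120.8 to 514.0 CPM in WT_Af, against 891.8 to 1292 CPM in KO_PBS and 814.3 to 1565 CPM in WT_PBS. Of 7 squamous epithelium genes 3 were tested, and Krt14 rose in KO lungs (log2 2.47).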
